A study of Mus musculus with 12 samples.

Results

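The 9 genes described here encode transcription factors known from the trophectoderm, the outer layer of the blastocyst: Cdx2, Eomes, Gata3, Gata2, Tfap2c, Tfap2a, Elf5, Tead4 and Hand1. They were chosen by name, as 9 of the 43472 genes of the deposited expression table, and all 9 were found there under those names. RNA-seq was made from whole CD1 mouse embryos, an outbred stock, whose zygotes had been injected with GFP mRNA as an injection marker together with a negative control siRNA or an siRNA against Tdgf1. Tdgf1 encodes Cripto, a co-receptor for Nodal. Embryos of both arms were collected at the morula, the early blastocyst and the late blastocyst stage, with 2 libraries in each of the 6 groups and 12 in all. Every embryo, controls included, had thus received GFP mRNA and an siRNA, and an uninjected group is not analysed here. The sources used here give neither the number of embryos in a library nor whether the 2 libraries of a group came from separate embryos. The p-values therefore measure the spread among these libraries, and that spread may be technical.

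The trophectoderm is the first epithelium of the mouse embryo and gives rise to the placenta, while the enclosed inner cell mass gives rise to the epiblast and the primitive endoderm. In outer cells of the morula, Hippo signalling is low, the co-activator Yap1 enters the nucleus and joins Tead4, and the pair switches on Cdx2, with Gata3 acting beside it. Eomes and Elf5 act later and maintain the trophoblast stem cell state, and Hand1 is known for driving trophoblast giant cells after implantation. The libraries hold whole embryos, so fewer trophectoderm cells and less RNA per cell cannot be told apart in any level below.

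Levels are given in CPM, the reads of a gene per 1000000 reads in all genes, and log2 changes are on the scale log2(deposited value + 1), where 1 deposited unit is 3.582 CPM, which understates the changes of low genes. Libraries held 10524640 to 13770264 reads in genes, so that 3 reads, which a count of 0 still allows, were worth 0.218 to 0.285 CPM, counting error alone considered. A list of 8 trophectoderm markers summed to 311 to 570 CPM in morulae, 1588 to 3701 CPM in early and 6014 to 8737 CPM in late blastocysts. Markers of the inner cell mass and epiblast summed to 963 to 1267, 1068 to 1253 and 556 to 614 CPM, and those of the primitive endoderm to 1076 to 1243, 1187 to 1567 and 2241 to 2294 CPM. The 6 post-implantation trophoblast markers summed to 0.915 to 3.14 CPM in morulae, 1.56 to 2.68 CPM in early and 124 to 227 CPM in late blastocysts. Of these 6, Prl2c2 and Tpbpa had no read in any library. Cumulus and granulosa cell markers summed to 22.4 to 97.4 CPM over all libraries, and 3 to 5 of those 9 genes were at 0 in each stage. Blood and vessel markers summed to 16.0 to 49.96 CPM. The early blastocyst libraries stood apart by their replicate number: the trophectoderm markers summed to 3701 and 3255 CPM in the number 1 libraries and to 1588 and 1680 CPM in the number 2 libraries. The early blastocyst results are therefore also given with 1 of the numbers left out where that changed a call or moved a called value by over 1.5 times. Tdgf1 itself stood at 52.8% and 47.0% of control in the 2 same-numbered pairs of morula libraries, at 42.6% and 116.5% in early blastocysts and at 50.9% and 83.6% in late blastocysts. The library labelled early blastocyst Tdgf1 siRNA number 2 thus held no less Tdgf1 than its control.

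The promoters of 3 members are shown first because their windows hold matches to motifs of the families described below: Tfap2 in Gata3 and Cdx2, and Tead and T-box (the family of Eomes) in Elf5. The sequences are RefSeq start sites on GRCm38.p6, each 300 bases running from 250 bases before to 50 bases after the start, 5′ to 3′ on the strand of the gene, with motif matches in capitals. Gata3 is shown at chr2:9878551-9878850 on the minus strand, Cdx2 at chr5:147307200-147307499 on the minus strand, and the first of the 2 Elf5 windows at chr2:103411848-103412147 on the plus strand.
Gata3: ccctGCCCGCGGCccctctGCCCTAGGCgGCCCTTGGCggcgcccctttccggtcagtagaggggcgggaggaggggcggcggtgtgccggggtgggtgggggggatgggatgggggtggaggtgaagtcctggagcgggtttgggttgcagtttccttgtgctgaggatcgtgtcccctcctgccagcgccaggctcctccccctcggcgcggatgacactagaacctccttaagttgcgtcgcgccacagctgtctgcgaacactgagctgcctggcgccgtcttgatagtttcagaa
Cdx2: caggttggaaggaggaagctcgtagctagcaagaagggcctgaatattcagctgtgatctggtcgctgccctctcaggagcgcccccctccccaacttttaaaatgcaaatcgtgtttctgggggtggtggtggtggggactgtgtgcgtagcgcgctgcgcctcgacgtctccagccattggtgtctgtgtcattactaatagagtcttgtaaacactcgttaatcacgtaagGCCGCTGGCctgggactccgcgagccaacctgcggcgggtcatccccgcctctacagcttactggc
Elf5: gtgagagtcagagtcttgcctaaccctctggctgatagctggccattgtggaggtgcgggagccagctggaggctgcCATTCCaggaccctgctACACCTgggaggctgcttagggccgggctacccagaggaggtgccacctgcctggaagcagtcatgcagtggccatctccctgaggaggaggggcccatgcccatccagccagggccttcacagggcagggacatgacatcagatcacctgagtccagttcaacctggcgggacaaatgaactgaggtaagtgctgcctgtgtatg
Motifs were searched on both strands, with N for any base. The letters searched for the Tead family were GGAATG and for the Tfap2 family GCCNNNGGC. For T-box factors they were AGGTGT, for zinc-finger factors like Gata3 they were AGATAA, and for the homeobox factors of the Cdx type they were CNATAAA. RefSeq windows were at hand for 6 members, 9 windows in all: those of Cdx2, Eomes, Gata3, Gata2, Tfap2a and Elf5. The Tfap2 motif was found in 3 of the 9 windows, 1 each of Cdx2, Gata2 and Gata3, and in 16.59% of all 32851 windows of the same length. Its 3 matches in the Gata3 window do not overlap one another. The Tead motif was found in 2 of the 9 windows, of Elf5 and Gata2, against 14.66% of all windows, and the T-box motif in both Elf5 windows, against 13.74%. Neither the Gata nor the Cdx motif was found in a member's window, against 11.18% and 10.91% of all windows. The members' windows held a median of 60.67% G and C and 15 CpG dinucleotides, beside 52.67% and 7 over all windows. A match describes letters and shows no binding.

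Counted by onset, 6 of the 9 factors were present at morula, 2 came on at early blastocyst and 1 at late blastocyst, taking presence as at least 10 reads in all 4 libraries of a stage. Cdx2, Eomes, Gata3, Tfap2c, Tead4 and Hand1 met that rule at morula, Gata2 and Tfap2a first at early blastocyst, and Elf5 first at late blastocyst. Between morula and early blastocyst, 5 of 9 rose (Cdx2, Eomes, Gata3, Gata2 and Tfap2a) and 2 fell (Tfap2c and Hand1), with Benjamini-Hochberg adjusted p-values from limma under 0.05. Over all 10751 genes tested, 33.7% passed in that comparison, 19.7% higher and 14.0% lower. Between early and late blastocyst, 5 rose (Eomes, Gata3, Gata2, Tfap2a and Elf5) and 2 fell (Tead4 and Hand1), beside 44.7% of all genes, 27.0% higher and 17.7% lower. Between morula and late blastocyst all 9 changed, 6 higher (Cdx2, Eomes, Gata3, Gata2, Tfap2a and Elf5) and 3 lower (Tfap2c, Tead4 and Hand1), beside 60.9% of all genes, 36.6% higher and 24.3% lower. The median log2 change of the 9 was 0.85, 1.03 and 2.18 in these comparisons, against 0.05, 0.09 and 0.13 over all genes tested. Counted by library, 4 factors stood higher in all 4 early blastocyst than in all 4 morula libraries and 2 lower, beside 19.7% and 14.1% of all genes. The 4 were Gata3, Gata2, Tfap2a and Elf5, of which Elf5 rested on only 1 or 2 reads a library against 0 at morula. From early to late blastocyst 5 stood higher and 2 lower without overlap (25.7% and 17.9% of all genes), and from morula to late blastocyst 6 higher and 3 lower (35.3% and 23.5%). All 9 passed the filter on low values, a mean of at least 1 deposited unit over the 12 libraries, Elf5 only through late blastocyst, so its rise there was fixed by that filter. With quantile normalization the share of higher genes among those called was 50.7%, 46.8% and 46.6% in the 3 comparisons in place of 58.3%, 60.4% and 60.0%, and the median of all genes moved by at most 0.20 on the log2 scale. In edgeR that share was 54.6%, 50.3% and 51.1%. No call of a member changed direction with either. With no filter on low values 3 of 9 passed at the first step, beside 7.82% of 32486 genes. With the mean of each same-numbered pair as 1 value, 5, 6 and 8 of 9 passed in the 3 comparisons, beside 20.5%, 31.9% and 51.7% of all genes.

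**Figure D1:**
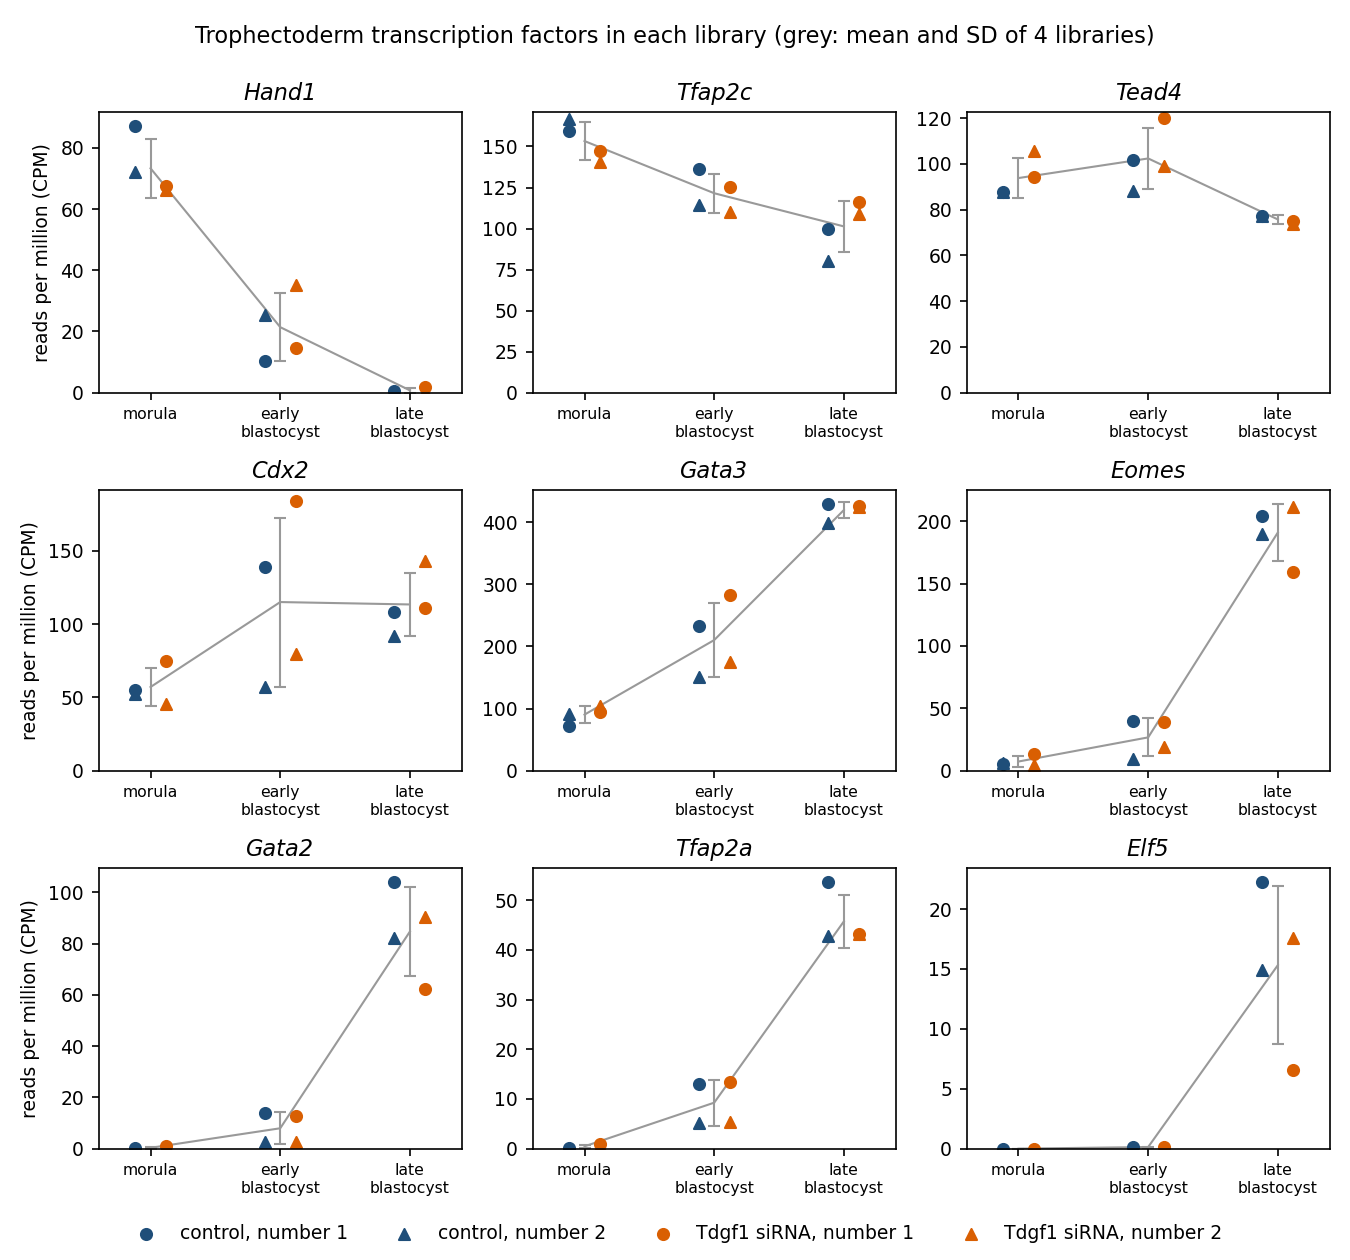
CPM (linear axes from 0) of each factor in each of the 12 libraries, by stage; blue marks control and orange Tdgf1 siRNA libraries, circles number 1 and triangles number 2, and grey lines join the means of 4 libraries with their SD. Hand1 falls from 66.3 to 87.2 CPM at morula to at most 1.92 CPM at late blastocyst, Gata3, Eomes, Gata2, Tfap2a and Elf5 stand highest at late blastocyst, and circles lie above triangles for Cdx2, Eomes, Gata3, Gata2 and Tfap2a at early blastocyst.

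Tead4, the DNA-binding partner of Yap1 at the head of the trophectoderm programme (chromosome 6, 128224288 to 128300823, minus strand, GRCm38), changed little over the 3 stages. At morula it stood at 87.6 and 87.6 CPM in the control libraries and 94.0 and 106 CPM in the Tdgf1 siRNA libraries, in the order of the replicate numbers. At early blastocyst it stood at 102 and 88.2 CPM in controls and 120 and 99.2 CPM after Tdgf1 siRNA, and at late blastocyst at 77.1 and 77.2 against 74.9 and 73.5 CPM. All 4 late blastocyst libraries lay below all 8 earlier ones, while morula and early blastocyst overlapped. Tead4 fell by 0.41 on the log2 scale between early and late blastocyst (SE 0.11, limma adjusted p = 0.00832), and the change from morula to early blastocyst, 0.12, did not pass (adjusted p = 0.432). From morula to late blastocyst it fell by 0.29 (adjusted p = 0.0332), a call that was lost on leaving out any of 7 of the 12 libraries, 1 at a time (adjusted p 0.0635 to 0.110): every late blastocyst library, both morula controls and the second morula Tdgf1 siRNA library. With the mean of each same-numbered pair taken as 1 value, neither fall passed (adjusted p = 0.0523 and 0.112), and without the number 1 early blastocyst pair the later fall did not (adjusted p = 0.0654).

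Cdx2, the homeobox factor that marks outer cells (chromosome 5, 147300805 to 147307270, minus strand), was present from the morula on and reached its level by early blastocyst. It stood at 55.3 and 52.3 CPM in morula controls and 75.1 and 45.6 CPM after Tdgf1 siRNA. Early blastocysts held 139 and 57.3 CPM in controls and 184 and 79.4 CPM after Tdgf1 siRNA, and late blastocysts 108 and 91.6 against 111 and 143 CPM. The number 1 early blastocyst libraries were the highest and the third of all 12, while the lower early blastocyst control lay within the morula range. The mean level was 57.1 ± 12.7, 115 ± 57.7 and 113 ± 21.6 CPM at the 3 stages (SD, n = 4 each). Cdx2 rose by 0.85 on the log2 scale from morula to early blastocyst (SE 0.27, limma adjusted p = 0.0283) and by 0.95 from morula to late blastocyst (adjusted p = 0.00828), and the difference between the blastocyst stages was 0.10 (adjusted p = 0.792). This order of events rested on the number 1 early blastocyst pair: without it the earlier step was 0.25 (adjusted p = 0.349) and the later step 0.70 (adjusted p = 0.00937). Without the number 2 pair they were 1.46 (adjusted p = 0.00015) and -0.50 (adjusted p = 0.0560). The earlier call was also lost on leaving out any of 5 single libraries (adjusted p 0.0611 to 0.121), namely either number 1 early blastocyst library, either morula control or the second morula Tdgf1 siRNA library, and with pair means (adjusted p = 0.0829).

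Gata3, a zinc-finger factor that acts beside Cdx2 (chromosome 2, 9857078 to 9890034, minus strand), rose at both steps. Its morula level was 71.8 and 90.5 CPM in controls and 93.6 and 105 CPM after Tdgf1 siRNA. Early blastocysts held 232 and 151 CPM in controls and 282 and 175 CPM after Tdgf1 siRNA, and late blastocysts 428 and 399 against 425 and 425 CPM. The 3 stages did not overlap in any library, and the late blastocyst libraries were the most alike (419 ± 13.5 CPM, SD, n = 4). Gata3 rose 2.33-fold by the ratio of mean CPM from morula to early blastocyst (log2 change 1.16, SE 0.16, limma adjusted p = 0.000189) and 2.0-fold from there to late blastocyst (1.03, adjusted p = 0.000233), 4.65-fold in all. Reads were taken as not separable by strand, and the annotated antisense gene Gm13256, whose exons overlap those of Gata3, was listed at 0.950 to 16.6 CPM.

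Its paralog Gata2 (chromosome 6, 88193891 to 88207032, plus strand) was at the edge of detection at morula. It had 1 read in each morula control, and 12 and 1 reads after Tdgf1 siRNA. Early blastocysts held 14.1 and 2.54 CPM in controls and 12.6 and 2.60 CPM after Tdgf1 siRNA, and late blastocysts 104 and 82.1 against 62.4 and 90.3 CPM. Every library of a later stage lay above every library of an earlier one. Gata2 rose by 1.39 on the log2 scale at the first step (SE 0.33, limma adjusted p = 0.00564) and by 3.09 at the second (adjusted p = 1.15e-05). The first step was 0.66 without the number 1 early blastocyst pair (adjusted p = 0.0417) and 2.12 without the number 2 pair (adjusted p = 2.8e-05). Per kilobase of exon, Gata2 stood at a median of 0.0866% of Gata3 at morula (range 0.0644% to 0.815%, n = 4), 2.27% at early blastocyst (1.10% to 4.46%) and 15.4% at late blastocyst (10.8% to 17.9%).

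The 2 members of the Tfap2 family, whose proteins bind the same palindromic motif, moved in opposite directions. Tfap2c, which also acts in the cleavage-stage embryo (chromosome 2, 172549593 to 172558622, plus strand), was at its highest at morula: 159 and 166 CPM in controls and 147 and 140 CPM after Tdgf1 siRNA. It stood at 136 and 114 against 126 and 110 CPM at early blastocyst, and at 99.8 and 80.3 against 116 and 109 CPM at late blastocyst. Morula libraries lay above all blastocyst libraries, and the 2 blastocyst stages overlapped. From morula to late blastocyst Tfap2c fell by 0.59 on the log2 scale (SE 0.11, limma adjusted p = 0.000431). The first step, a fall of 0.33 (adjusted p = 0.0364), was lost on leaving out any morula library or either number 2 early blastocyst library (6 of 12, adjusted p 0.0664 to 0.114) and with pair means (adjusted p = 0.130). The second step of -0.26 did not pass in limma (adjusted p = 0.0707) and passed in edgeR (adjusted p = 0.0147) and DESeq2 (adjusted p = 0.00540). Without the number 2 early blastocyst pair the first step was -0.22 (limma adjusted p = 0.194) and the second -0.37 (adjusted p = 0.0409).

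Tfap2a (chromosome 13, 40715302 to 40738376, minus strand) had 2 reads in each morula control and 11 and 6 reads after Tdgf1 siRNA. Early blastocysts held 13.1 and 5.16 CPM in controls and 13.5 and 5.36 CPM after Tdgf1 siRNA, and late blastocysts 53.7 and 42.9 against 43.2 and 43.2 CPM. The stages did not overlap. Tfap2a rose by 1.59 on the log2 scale at the first step (SE 0.23, limma adjusted p = 0.000279) and by 2.01 at the second (adjusted p = 2.37e-05). Per kilobase of exon it went from a median of 0.191% of Tfap2c at morula to 5.42% at early blastocyst and 34.9% at late blastocyst, and the ranges (0.0857% to 0.484%, 3.38% to 8.04% and 27.9% to 40.4%) did not overlap. Its antisense neighbour Gm26688 was listed at 0 to 5.24 CPM.

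Eomes, a T-box factor of the polar trophectoderm and trophoblast stem cells (chromosome 9, 118478212 to 118486132, plus strand), made most of its rise at the last step. It stood at 5.04 and 6.37 CPM in morula controls and 13.7 and 4.21 CPM after Tdgf1 siRNA. Early blastocysts held 39.9 and 9.08 CPM in controls and 38.8 and 19.0 CPM after Tdgf1 siRNA, and late blastocysts 204 and 190 against 159 and 211 CPM. The first Tdgf1 siRNA library at morula lay above the second early blastocyst control, the one overlap between these stages, and every late blastocyst library lay above all others. Eomes rose by 1.38 on the log2 scale from morula to early blastocyst (SE 0.34, limma adjusted p = 0.00750) and by 2.84 from there to late blastocyst (adjusted p = 3.01e-05), and its mean CPM was 26.1-fold higher at late blastocyst than at morula. Without the number 1 early blastocyst pair the first step was 0.70 (adjusted p = 0.0712).

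Elf5, an ETS factor of trophoblast stem cells (chromosome 2, 103411688 to 103450989, plus strand), was the last to appear. It had no read in any morula library and 1 or 2 reads in each early blastocyst library. Late blastocysts held 22.3 and 14.9 CPM in controls and 6.55 and 17.6 CPM after Tdgf1 siRNA, that is 243, 193, 75 and 199 reads. Every late blastocyst library thus held 75 reads or more against at most 2 in any earlier one, and the first Tdgf1 siRNA library was the lowest of the 4. Set against the highest value of 3 reads in a morula library, 0.285 CPM, the mean of 15.3 ± 6.60 CPM (SD, n = 4) was at least 53.7-fold higher. On the log2 scale the step between the blastocyst stages was 2.27 (SE 0.21, limma adjusted p = 4.70e-06). Elf5 passed the filter on low values only through late blastocyst, so that p-value is no support for the rise.

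Hand1, a basic helix-loop-helix factor (chromosome 11, 57828705 to 57832818, minus strand), ran the other way. Morula libraries held 87.2 and 72.2 CPM in controls and 67.6 and 66.3 CPM after Tdgf1 siRNA. Early blastocysts held 10.3 and 25.5 against 14.6 and 35.2 CPM, and late blastocysts 0.642 and 0.0771 against 1.92 and 0.353 CPM, which are 7, 1, 22 and 4 reads. The stages did not overlap. Hand1 fell by 1.73 on the log2 scale from morula to early blastocyst (SE 0.26, limma adjusted p = 0.000347) and by 2.43 from there to late blastocyst (adjusted p = 1.25e-05). By the ratio of mean CPM it was 3.43-fold higher at morula than at early blastocyst and 98.0-fold higher at morula than at late blastocyst. The late mean of 0.748 CPM rested on the first Tdgf1 siRNA library: without it that mean was 0.357 CPM and the last ratio 205.

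**Figure D2:**
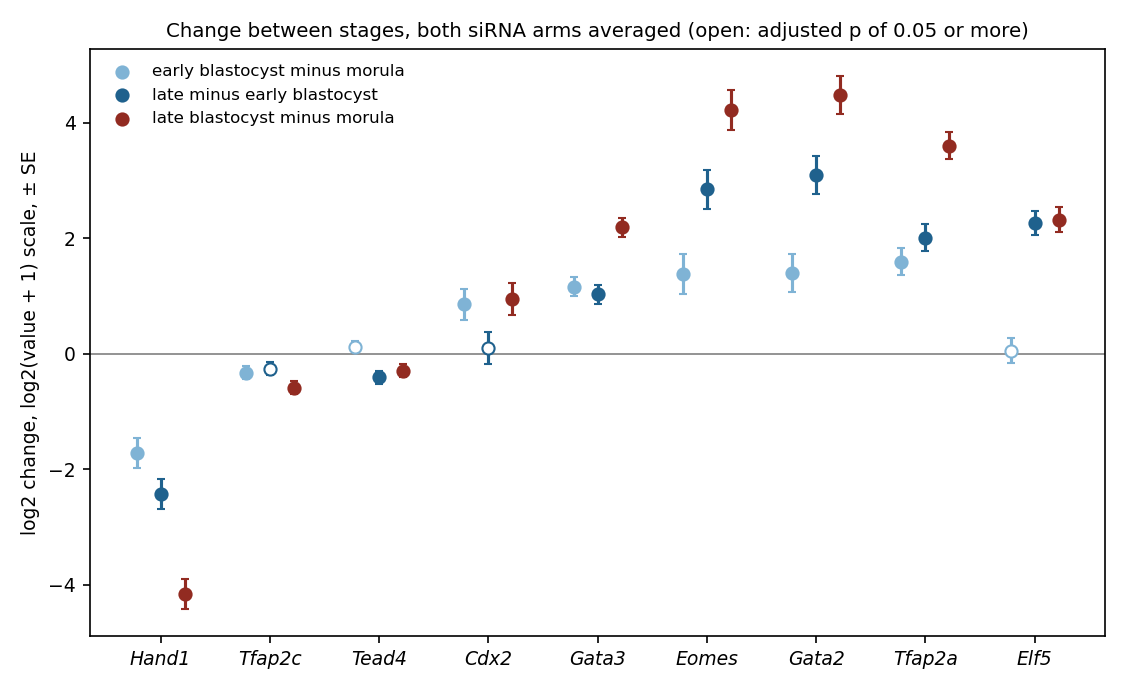
Log2 change between stages for each factor in the limma fit, both siRNA arms averaged, with SE bars; filled points have a Benjamini-Hochberg adjusted p under 0.05 and open points do not. Hand1 lies lowest at -1.73, -2.43 and -4.16, and Gata2 (4.48) and Eomes (4.22) lie highest from morula to late blastocyst; open points are Tead4 and Elf5 at the first step and Cdx2 and Tfap2c at the second.

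The same calls were looked for in each siRNA arm alone, with 2 libraries a stage. From morula to early blastocyst 4 of 9 passed in controls (Gata3, Gata2, Tfap2a and Hand1; 15.8% of all genes) and 3 of 9 in Tdgf1 siRNA embryos (Gata3, Tfap2a and Hand1; 15.4%). From early to late blastocyst 7 passed in each arm, against 27.7% and 23.6% of all genes: Eomes, Gata3, Gata2, Tfap2a, Elf5 and Hand1 in both, Tfap2c in controls and Tead4 after Tdgf1 siRNA. Elf5 passed the filter on low values only through late blastocyst, so its rise to that stage was fixed by the filter in both arms. From morula to late blastocyst 7 passed in controls and 8 after Tdgf1 siRNA, Elf5 among them in each arm, beside 48.2% and 43.8%. Tfap2c fell by 0.84 in controls over that interval (limma adjusted p = 0.000708) and changed by -0.34 after Tdgf1 siRNA (adjusted p = 0.0929). The test of whether the siRNA difference of Tfap2c varied between stages gave an unadjusted p of 0.0982 (limma F test, adjusted p = 1.0). With same-numbered pairs as a block that unadjusted p was under 0.05 in limma (475 of 10751 genes) and in edgeR (506 genes). No member was called in either blocked fit.

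Put on one scale per kilobase of exon, the order of the factors changed from stage to stage. At morula Tfap2c led with 41.7 ± 3.18 CPM per kilobase (SD, n = 4) and Hand1 followed with 36.7 ± 4.81, their libraries overlapping. Tead4 (26.1), Cdx2 (25.2) and Gata3 (22.7) came next and overlapped one another, and Eomes (1.76), Tfap2a (0.0956) and Gata2 (0.0609) lay far below. At early blastocyst Gata3 (52.8), Cdx2 (50.9), Tfap2c (33.0) and Tead4 (28.4) each overlapped the one above it in that order, while the lowest Gata3 library (37.9) lay above the highest of Tfap2c (37.1) and of Tead4 (33.4). Hand1 (10.7) took the fifth place and overlapped Eomes (6.43). At late blastocyst Gata3 led alone with 105 ± 3.39 CPM per kilobase, followed by Cdx2 (50.1) and Eomes (46.0), which overlapped and swapped places when the longest coding transcript was used as the length. Tfap2c (27.5), Tead4 (21.03), Gata2 (15.7), Tfap2a (9.33), Elf5 (2.61) and Hand1 (0.375) then followed with no overlap between neighbours. With the longest coding transcript as the length, Gata2 (17.5 to 29.2) overlapped both Tead4 (23.9 to 25.1) and Tfap2c (26.9 to 38.9).

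**Figure D3:**
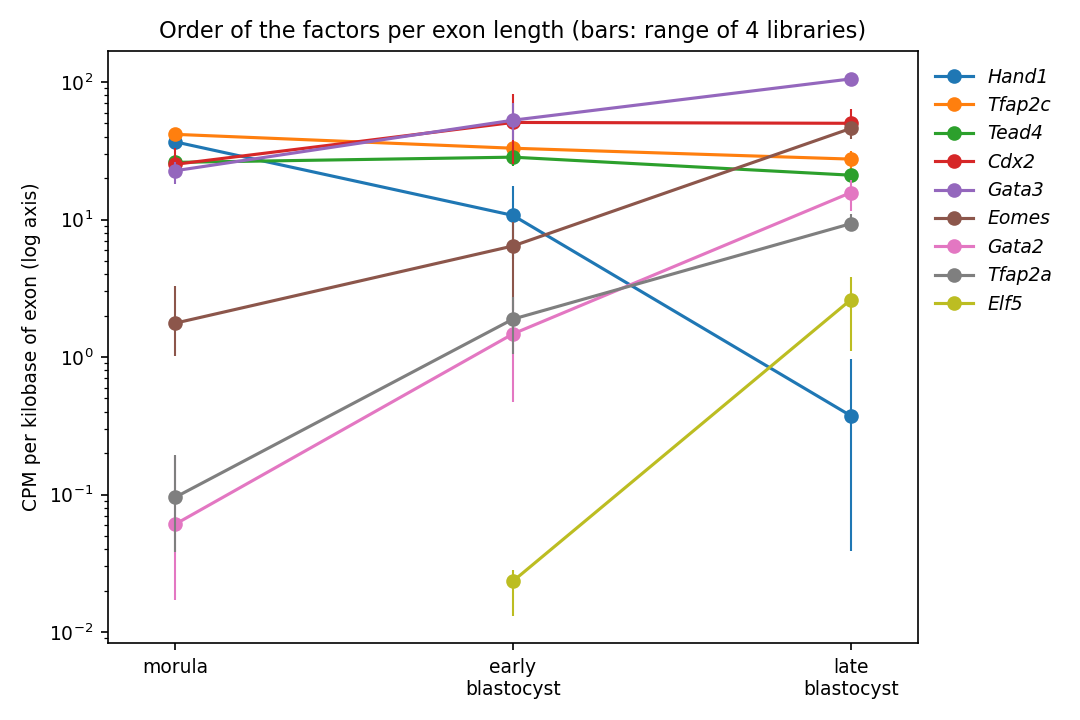
Mean CPM per kilobase of exon (log axis) of each factor at the 3 stages, 4 libraries a stage, with bars for the range of the libraries; Elf5 had no read at morula and has no point there. Hand1 passes from the second place (36.7) to the last (0.375), while Gata3 passes from the fifth (22.7) to the first (105). At morula the range of Gata3 overlaps those of Cdx2 and Tead4, and the longest coding transcript as the length puts it above Cdx2.

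Summed over the 9 genes, the factors made up 476 ± 12.4, 614 ± 153 and 1047 ± 68.2 CPM from stage to stage (SD, n = 4 each). Of their sum per kilobase, Gata3 held 14.7%, 28.3% and 38.0% at the 3 stages, Tfap2c 27.0%, 18.4% and 9.89%, and Hand1 23.8%, 6.49% and 0.136%. The share of Gata3 at early blastocyst lay between 27.4% and 29.3% in all 4 libraries, although its CPM ranged from 151 to 282 there. Relative to Cdx2, again per kilobase, Hand1 stood at a median of 161%, 29.6% and 0.476% at the 3 stages, and Eomes at 5.83%, 12.2% and 91.6%.

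The early blastocyst libraries of number 1 and number 2 differed in 6 of the 9 factors, a comparison added after this split was seen, in which 13.1% of all genes passed. Cdx2 stood at 162 ± 31.8 CPM in the number 1 libraries and 68.3 ± 15.6 CPM in the number 2 libraries (SD, n = 2 each; log2 difference 1.20, limma adjusted p = 0.00036). Gata2 stood at 13.3 against 2.57 CPM (1.46, adjusted p = 0.0010), Eomes at 39.4 against 14.0 CPM (1.35, adjusted p = 0.0041), Tfap2a at 13.3 against 5.26 CPM (0.93, adjusted p = 0.0089) and Gata3 at 257 against 163 CPM (0.64, adjusted p = 0.0029). Hand1 stood lower in number 1, at 12.5 against 30.3 CPM (-1.08, adjusted p = 0.0027). The 5 factors that rose from morula to early blastocyst were the 5 that were higher in number 1, and Hand1, which fell, was lower in number 1. This match is partly built in, because the number 1 libraries belong to the early blastocyst group that gave the stage calls. Without them Cdx2 and Eomes were not called at that step (limma adjusted p = 0.349 and 0.0712). Tfap2c and Tead4 differed by 0.22 and 0.23 and did not pass. At morula and late blastocyst none of the 9 differed between the numbers, where 3.75% and 0.465% of all genes did. The labels do not say what the numbers stand for. The summed trophectoderm markers, a sum in which abundant genes weigh most, differed between the numbers in the same direction (3701 and 3255 against 1588 and 1680 CPM). Their part in these differences was not tested.

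Tdgf1 siRNA changed none of the 9 factors past the threshold at any stage, averaged over stages, or in the test of a difference between stages. In limma 0 of 9 members and 0% of all 10751 genes passed in each of these 5 tests. The genes not called include Tdgf1 itself, at 52.8% and 47.0% of control in the morula pairs. In early blastocysts it stood at 42.6% and 116.5% and in late blastocysts at 50.9% and 83.6%. These tests can thus miss a fall of that size in the target, and the early blastocyst pair at 116.5% was kept in them. At an unadjusted p under 0.05, 194 genes at morula, 112 at early blastocyst, 221 at late blastocyst and 268 on average passed in limma, none of them a member. Members called were also 0 in edgeR and in DESeq2. Without a block, Tfap2a at morula was the one member with an unadjusted p under 0.05 in either. With same-numbered pairs as a block, edgeR gave such a p to Cdx2, Gata3, Hand1 and Tfap2a on average (895 of 10751 genes). At morula it did so for Gata2, Gata3 and Tfap2a (660 genes), and at early blastocyst for Cdx2 and Hand1 (496). At late blastocyst it did so for Hand1 and Tfap2c (650), and in the test of a difference between stages for Gata2, Hand1, Tfap2a and Tfap2c (506). No member was called in that fit. With same-numbered pairs as a block, limma called 5, 5 and 3 genes in the order of the stages, again none of them a member.

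At morula 5 of the 9 factors had control and Tdgf1 siRNA libraries that did not overlap, beside 27.5% of all genes. Gata3 (99.2 ± 7.91 against 81.2 ± 13.3 CPM, SD, n = 2 each), Tead4 (99.9 ± 8.31 against 87.6 ± 0.0130 CPM) and Tfap2a (0.749 against 0.188 CPM) were higher in the Tdgf1 siRNA libraries. Tfap2c (144 ± 4.81 against 163 ± 5.14 CPM) and Hand1 (67.0 ± 0.976 against 79.7 ± 10.6 CPM) were lower. The log2 differences of these 5 lay between -0.23 and 0.29 and the smallest unadjusted limma p was 0.230, for Gata3. The first Tdgf1 siRNA library held the most Cdx2, Eomes, Gata2 and Tfap2a of the 4 morula libraries, and also the highest sum of trophectoderm markers, 570 CPM against 311 to 497 CPM, whose part in these differences was not tested.

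At early blastocyst 0 of the 9 were without overlap, beside 19.4% of all genes. Cdx2 stood at 132 ± 74.1 CPM after Tdgf1 siRNA against 98.3 ± 57.9 CPM in controls, a log2 difference of 0.42 with a 95% interval in the limma fit of -0.41 to 1.25. Within both same-numbered pairs the Tdgf1 siRNA library was the higher one for Cdx2, Gata3, Hand1, Tead4 and Tfap2a (25.5% of all genes) and the lower one for Tfap2c and Elf5, the latter on 1 or 2 reads (25.4% of all genes). For Eomes and Gata2 the pairs went in opposite directions. At late blastocyst 3 of the 9 were without overlap, beside 31.9% of all genes. Cdx2 (127 ± 22.8 against 99.8 ± 11.6 CPM) and Tfap2c (113 ± 5.02 against 90.1 ± 13.8 CPM) were higher after Tdgf1 siRNA and Tead4 (74.2 ± 0.973 against 77.2 ± 0.0826 CPM) lower. Tfap2c had the smallest unadjusted p of the members at that stage, 0.0644 (log2 difference 0.32, 95% interval -0.02 to 0.66), and Elf5 the next, 0.0750 (-0.58, interval -1.22 to 0.07). The low Elf5 mean came from the first Tdgf1 siRNA library, which was also the lowest of the 4 for Eomes and Gata2, the highest for Hand1, and the lowest in summed trophectoderm markers (6014 against 7110 to 8737 CPM), and the part of that library's make-up in the difference was not tested.

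Averaged over the 3 stages, the log2 differences of the 9 factors lay between -0.20 (Elf5) and 0.29 (Cdx2), with a median of 0.11 against 0.01 over all genes tested. Cdx2, Gata3 and Tfap2a were higher after Tdgf1 siRNA in 5 of the 6 same-numbered pairs, Hand1 and Tead4 in 4, Eomes and Gata2 in 3, Tfap2c in 2 and Elf5 in 1. The share of all genes with such counts was not worked out, so the counts show nothing particular to these factors. In 1 of the pairs, number 2 of the early blastocysts, Tdgf1 stood at 116.5% of control. The average difference of Cdx2 had a 95% interval of -0.19 to 0.77 in limma and an unadjusted p of 0.218. With the pairs as a block that p was 0.00778, and 0.424 after adjustment over all genes. Tead4 and Tfap2c had the narrowest intervals, -0.09 to 0.30 and -0.18 to 0.21, and Eomes and Gata2 the widest, -0.39 to 0.81 and -0.64 to 0.52.

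**Figure D4:**
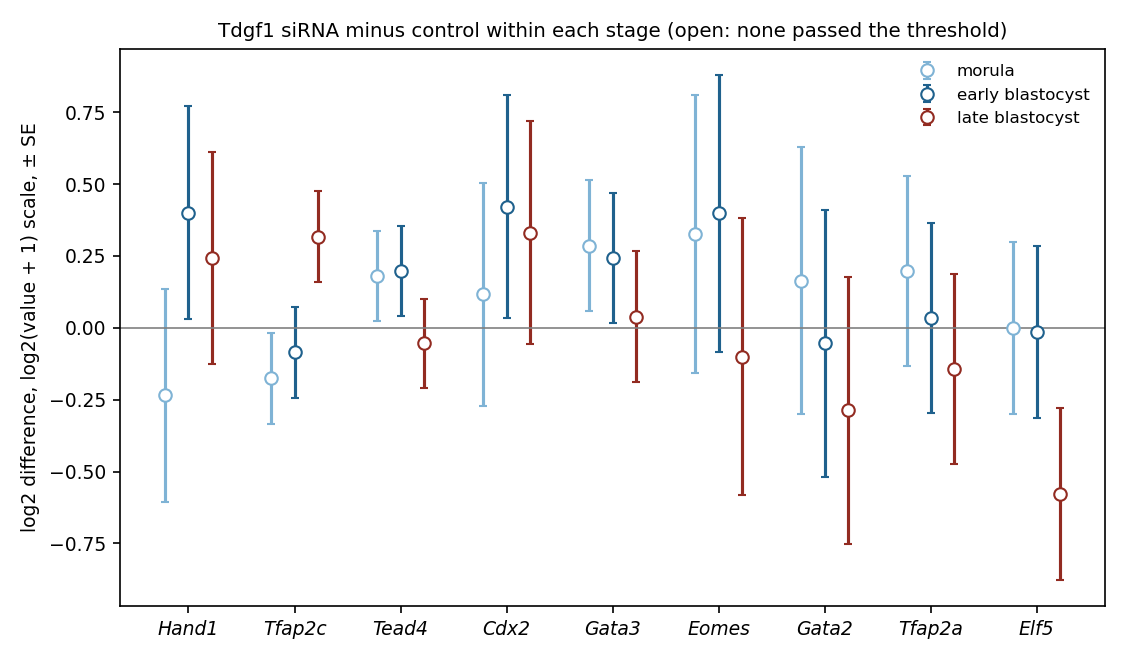
Log2 difference of Tdgf1 siRNA minus control for each factor within each stage, with SE bars from the limma fit (2 libraries against 2). All points are open because 0 of 9 factors passed at any stage; the largest is -0.58 for Elf5 at late blastocyst.

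Other genes of the pathway were taken from lists by function. Of 17 partners of Tead4 in Hippo and Notch signalling, 15 passed the filter; 0 rose and 5 fell from morula to early blastocyst, and 3 rose and 2 fell from early to late blastocyst. Of all genes tested, 19.7% rose and 14.0% fell at the first step, and 27.0% rose and 17.7% fell at the second. In either direction 33.7% and 44.7% passed, and the share of the list, 5 of 15 at each step, was not above that. All 5 calls of the first step were falls. The 5 that fell at the first step were the scaffold Amot (-0.67), the kinase adaptors Mob1b (-0.62) and Mob1a (-0.46), the kinase Stk4 (-0.43) and the Notch effector Rbpj (-0.35), as log2 changes. At the later step Amotl2 (1.44), the kinase Stk3 (0.89) and Mob1a (0.44) rose, while Nf2, an upstream activator of the Hippo kinases, fell by 1.19 and the Yap1 relative Wwtr1 by 0.53. Yap1 itself changed by -0.33 at the first step (limma adjusted p = 0.131). The median over the 15 was -0.33 and -0.01 at the 2 steps, beside 0.05 and 0.09 for all genes tested.

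Of 15 further trophoblast transcription factors, 9 passed the filter, of which 4 rose and 1 fell at each step, beside 19.7% higher and 14.0% lower of all genes at the first and 27.0% and 17.7% at the second. Their median log2 change was 0.45 and 0.34, against 0.05 and 0.09 over all genes. Id2, an inhibitor of helix-loop-helix factors, rose by 2.35 and 2.24 on the log2 scale, Msx2 by 1.49 at the first step, Tfeb by 0.97 and 0.83, and Grhl1 (1.47) and Ets2 (1.08) at the second. The fourth gene to rise at the first step was Grhl2 (0.46). Tbx3 fell by 1.01 and 0.66. Gcm1, a regulator of the later placental labyrinth, had no read in any late blastocyst library.

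All 20 trophectoderm effector genes passed the filter, and 12 rose and 1 fell from morula to early blastocyst, while 17 rose and 0 fell from early to late blastocyst. Of all genes tested 19.7% rose and 14.0% fell at the first of these steps, and 27.0% rose and 17.7% fell at the second. At the first step the changes were largest for Dppa1 (3.45 on the log2 scale), the epithelial keratins Krt18 (2.77) and Krt8 (2.29) and the fatty acid binding protein gene Fabp3 (1.91), and at the second for the tetraspanin gene Tspan8 (4.75), Dppa1 (2.70), the keratin Krt7 (2.60) and the water channel Aqp8 (2.03). Krt18 went from 135 ± 43.4 to 982 ± 456 and 3340 ± 661 CPM (SD, n = 4 each), and its stages did not overlap. The gene that fell at the first step was the water channel Aqp9 (-0.73). Aqp8 and Krt19, both among the 17, reached the filter only through late blastocyst, so their rise there was fixed by it. The median log2 change of the list was 1.14 and 1.32, against 0.05 and 0.09 over all genes. The 8 trophectoderm markers summed above are all among these 20 genes, so the 2 lists are not separate.

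Of 19 paralogs of the members, 10 passed the filter, with 2 higher and 2 lower at the first step and 6 higher and 1 lower at the second, beside 33.7% and 44.7% of all genes in either direction. Cdx1 and Gata4, among the 6, reached the filter only through late blastocyst, so their rise there was fixed by it. The median log2 change of the list was 0.14 and 0.82. Among the Gata genes, Gata1 fell by 1.46 and 0.63 on the log2 scale and Gata6 by 0.76 at the first step, and Gata4, a primitive endoderm factor, rose by 2.25 at the second. Tead2 rose by 1.61 and 1.14 at the 2 steps, the second of which is the one where Tead4 fell. Elf3 was the other gene to rise at the first step (0.42). Cdx1 rose by 1.82 and the ETS gene Elf1 by 1.68 at the second step. No gene of these 4 lists passed in any comparison of Tdgf1 siRNA with control in limma. The genes with the smallest unadjusted p in limma were Dppa1 (log2 difference 1.0, SE 0.32) and Atp1b1 (0.77, SE 0.28) at morula. At early blastocyst they were Krt7 (-0.81, SE 0.30) and Aqp3 (-0.54, SE 0.27), and at late blastocyst Gata6 (0.43, SE 0.16) and Cldn6 (0.56, SE 0.24). After adjustment over all genes the limma p of each of these 6 was 1.0.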

How the data were processed

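The 9 genes, the other gene lists and the tests were chosen with earlier results of these data known. Per the labels' protocols, cDNA was amplified with a SMARTer low-input kit and made into libraries with a NEBNext kit; the labels name no strand. Tools named in the submitters' processing notes, without their roles, are HISAT2 2.1.0, HTSeq, Cufflinks and edgeR, and the build is mm10. The single table the authors deposited holds 12 libraries and 43472 genes and is headed RPKM per the file headers. As deposited by the authors, its values are in fact CPM divided by 3.582, with no division by gene length: every column sums to 279173.646, and 100% of the values above 0 are whole multiples of the value of 1 read within a tolerance of 0.01 reads. The design had assumed RPKM; the log-scale test was kept and the recovered reads served as an alternative.

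The 10751 genes whose mean reached 1 deposited unit were tested on log2(value + 1) with limma 3.58.1 (R 4.3.3, eBayes with a trend), in 1 fit of 6 group means (residual degrees of freedom 6, prior 7.55). The Benjamini-Hochberg adjustment ran over all genes tested in each comparison, with a threshold of 0.05. Stage comparisons averaged both arms and share libraries with each other. Members were matched by name, and every value of every member is given or summarised. From each other list the text names up to 4 genes with the largest changes among those that passed in a comparison and, for Tdgf1 siRNA, the 2 of all lists with the smallest unadjusted p; the remaining genes of counts of 5 or fewer, Yap1 and Gcm1 were named after their values were seen. Coordinates (1-based) and exon lengths are from GENCODE M21 on GRCm38, and promoters from RefSeq on GRCm38.p6; protein sequences were not used here. Simulated counts with known changes at early blastocyst were run through the fit to test its code. They held no effect of pair or replicate number, so they say nothing of the split by number in the real libraries. The alternatives were edgeR 4.0.16 (TMM) and DESeq2 1.42.0 on the recovered reads, other pseudocounts (0.1 and 5), filters (none and 5), quantile normalization, a replicate block, leaving out libraries or early blastocyst pairs and, added after seeing the data, pair means and the comparison of replicate numbers.

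Same-numbered control and Tdgf1 siRNA libraries deviated together from their group means (correlation 0.458 for morulae, 0.593 for early and 0.101 for late blastocysts). The main fit took no account of the numbers, so its siRNA p-values and intervals are unpaired. Only in the blocked alternatives and the pair means were numbers treated as pairs within each stage. That pairing rests on the correlations, since the labels state no shared day or litter, and barely holds for late blastocysts. Neighbouring stages of controls gave 0.00575 and 0.138. Blocking on the pairs left 3 residual degrees of freedom, with 13.6 prior ones.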

Additional observations from a re-analysis of the deposited data

Results flagged for a closer look

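In groups of 4 libraries of 1 stage, the gap of the most extreme library to its neighbour was set against the whole range and compared with Dixon's 95% critical value. Of 26 sets of a factor at a stage, 3 passed, where chance gives about 1 in 20. Gata3 at late blastocyst had its second control library lowest, at 399 CPM against 425 to 428 CPM. Gata2 at morula had its first Tdgf1 siRNA library highest, at 1.04 CPM (12 reads against 1 in each of the others). Tfap2a at late blastocyst had its first control library highest, at 53.7 CPM against 42.9 to 43.2 CPM.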

How the results depend on the processing

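Of the 699 values of single factors between stages under the alternatives, 648 kept their call, 42 lost it and 9 gained it, and no called value changed direction. From morula to early blastocyst the number of factors called went from 7 to 3 with no filter on low values (32486 genes tested), to 4 in the control arm alone and to 3 in the Tdgf1 siRNA arm alone. Leaving out single libraries gave 5 to 7 for that step, 7 to 7 for early to late blastocyst and 8 to 9 for morula to late blastocyst; pair means gave 5, 6 and 8, and leaving out the number 1 early blastocyst pair 5, 7 and 9. DESeq2 added Elf5 at the first step, on 1 or 2 reads a library (adjusted p = 0.0462). The Tdgf1 siRNA comparisons gave 0 of 9 in every alternative run, while 44 of 824 uncalled single values changed sign; DESeq2 was not run for the test of a difference between stages. The replicate block, with pairs taken from the data, changed no call of a factor for Tdgf1 siRNA (0 of 9 at each stage), and across stages gave 7, 8 and 9 factors, adding Tfap2c (adjusted p = 0.0486) at the second step, which pair means did not call (adjusted p = 0.184). Depth limits Gata2, Tfap2a and Elf5 at morula and Hand1 at late blastocyst, which rest on 0 to 22 reads a library, so their folds are the least precise, and 2 libraries a group limit every siRNA comparison.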

Other observations

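The genes whose levels ran most like each factor were ranked by Pearson correlation of log2 values over the 12 libraries among 6946 genes. The libraries fall into 3 clusters by stage and were amplified and scaled alike, so these values describe a shared stage pattern and carry no test. Eomes ran closest to 2510002D24Rik (0.994), Lcp1 and Msn, Gata3 to Slc22a23 (0.993), Gata2 to Wnk2 (0.996), Tmprss2 and Tspan8, and Tfap2a to Ank (0.995). Elf5 ran closest to Gm4926 (0.993), BC051665 and Gsta1; BC051665 went from a mean of 1.99 CPM at morula and 0.988 CPM at early blastocyst to 997 CPM at late blastocyst. Hand1 ran closest to Sumo2 (0.993), Zfp706 and Tomm20, which fell far less: Sumo2 had means of 2254, 1366 and 770 CPM at the 3 stages. Cdx2 (Tbl1xr1, 0.950), Tfap2c (Syde2, 0.965) and Tead4 (Ybx3, 0.939) had less close neighbours.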
